A study of Mus musculus with 14 samples.

Results

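Npas4 and 9 further genes whose transcripts or proteins answer synaptic activity (Arc, Homer1, Plk3, Rgs2, Gadd45b, Gadd45g, Nptx1, Nptx2 and Plk2) were read in hippocampal RNA of naive mice. They were chosen by gene symbol, as 10 of the 24421 genes in a table of read counts, with earlier results of these data known, and all 10 had enough counts to be tested. The table holds 14 mice, each with its own library: 7 labelled LPAR2-/- and 7 labelled WT. All 14 are labelled as male and of strain 129.C57Bl6, and none was treated. LPAR2 is a receptor for lysophosphatidic acid, a signalling lipid, and the LPAR2-/- mice lack the second part of exon 2 of Lpar2. WT mice were bred apart from the homozygous mutants, on a mix of 129/SvJ and C57BL/6, so that colony and genotype cannot be told apart. The labels state 10 to 12 weeks of age, while the title of the data set speaks of aged mice, and the dissected region is given as the hippocampus in one place and the dentate gyrus in another. The comparison asks whether transcripts of neuronal activity differ without LPAR2.

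Firing neurons copy synaptic activity into new RNA in waves. Calcium entry activates factors such as CREB, SRF and MEF2, which are already present and switch on early genes without new protein synthesis, and some of these early products are transcription factors that act on later genes. Npas4 is one of them: it is a bHLH-PAS factor, largely restricted to neurons, which is induced by calcium influx and pairs with Arnt proteins to set the balance of inhibitory and excitatory synapses. Among the other members, Arc, Homer1, Plk2 and the pentraxins act at the synapse. From textbook knowledge, 7 were counted as early (Npas4, Arc, Homer1, Plk3, Rgs2, Gadd45b and Gadd45g). The other 3 (Nptx1, Nptx2 and Plk2) were counted as late, since their RNA peaks or their proteins act hours after stimulation. This mixes the timing of RNA with that of protein, while the data hold RNA alone. The border between the classes is not sharp, least of all for Nptx2 and Plk2.

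Start-site windows of the members were read first, since the CRE, the 8-base sequence TGACGTCA bound by CREB, is the best-known element of early activity genes. Windows of 250 bases before the start site were taken from RefSeq on GRCm38.p6, and 7 of the 10 members matched, with 8 windows in all because Homer1 has 2. Arc, Nptx1 and Nptx2 had no match in the set of windows used here. The full CRE was in 1 of the 8 windows, that of Plk2, and in 1.55% of 32851 windows of the same length over all genes. Its half-site, TGACG read on either strand, was in 5 of the 8 windows (Npas4, Plk2, Rgs2, Plk3 and the first window of Homer1) and in 17.8% of all windows. The half-sites of Plk2 lie within its full CRE. The AP-1 letters TGANTCA and the CArG box bound by SRF were in 0 of the 8 windows, against 6.75% and 1.47% of all windows, and TATAAA, searched on the coding strand, was in those of Gadd45b and Gadd45g, against 7.59% of all. A match describes these letters and shows no binding. The windows below are those of Npas4, the member with the greatest difference between genotypes, of Plk2, with the full CRE, and of Rgs2, which has half-sites but lay level between genotypes; they run 5′ to 3′ on the coding strand up to the base before the start site, with CRE and half-site letters in capitals.

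Npas4, chr19:4989972-4990221, minus strand: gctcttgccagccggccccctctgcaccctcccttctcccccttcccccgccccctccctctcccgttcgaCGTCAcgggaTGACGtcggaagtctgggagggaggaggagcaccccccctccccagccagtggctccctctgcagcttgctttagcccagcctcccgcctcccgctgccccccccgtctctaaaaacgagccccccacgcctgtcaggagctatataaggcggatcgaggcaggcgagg

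Plk2, chr13:110394794-110395043, plus strand: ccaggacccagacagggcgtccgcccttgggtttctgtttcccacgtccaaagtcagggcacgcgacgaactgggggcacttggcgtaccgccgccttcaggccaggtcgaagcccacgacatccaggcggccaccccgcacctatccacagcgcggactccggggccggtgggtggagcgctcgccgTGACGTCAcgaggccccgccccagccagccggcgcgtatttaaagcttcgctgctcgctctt

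Rgs2, chr1:144004150-144004399, minus strand: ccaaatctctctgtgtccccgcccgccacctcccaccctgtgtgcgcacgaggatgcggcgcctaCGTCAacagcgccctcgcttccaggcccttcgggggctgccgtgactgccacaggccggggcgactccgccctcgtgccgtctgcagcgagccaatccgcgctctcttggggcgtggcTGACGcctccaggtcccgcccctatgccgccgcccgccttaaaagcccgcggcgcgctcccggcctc

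In the Npas4 window, the half-sites lie 179 to 175 and 169 to 165 bases before the start, on opposite strands. The full CRE of Plk2 is nearer, at 62 to 55 bases before the start, and the half-sites of Rgs2 are at 185 to 181 and 67 to 63 bases.

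Between 16373410 and 21992980 reads were counted on genes in the WT mice and between 15434620 and 23258949 in the mice labelled LPAR2-/-. Values are given as CPM, the reads of a gene scaled to a common library size, and differences between genotypes as log2 fold changes from edgeR's quasi-likelihood test with Benjamini-Hochberg adjustment over 14897 genes, at an adjusted p under 0.05. Lpar2 itself went against the labels: it had 27 to 66 counts in the WT mice and 144 to 234 in the mice labelled LPAR2-/-, without overlap (log2 fold change 2.01, edgeR adjusted p = 8.2e-07). These counts cover the gene as a whole, and reads on the deleted part were not analysed here. None of the 6 neuronal or 6 dentate gyrus markers passed the test, and all of them were detected. Of 14 lists of cell type and region markers, 1 gene in all passed, Lum of the meninges, which was higher (log2 fold change 0.54, edgeR adjusted p = 0.0132). Over all genes tested, 6.77% passed in either direction. Of the 6 meningeal markers, 5 had a log2 fold change above 0, against 7613 of 14897 genes tested, with a median of 0.81. Their summed level ran from 51.4 to 151 CPM in WT mice (median 72.9) and from 59.6 to 221 CPM in the others (median 133.8). The tested choroid plexus markers, 3 of 5, all had log2 fold changes above 0 (median 1.92), and the list's summed level ran from 28.1 to 33.1 CPM in WT mice (median 30.1) and from 25.4 to 285 CPM in the others (median 34.2). The part of these marker genes in the results on Npas4, Arc and Nptx2 was not tested. Libraries of 3 mice stood apart in a summed marker level: LPAR2-/- mouse 2 in choroid plexus genes (285 CPM, next highest 51.1), LPAR2-/- mouse 3 in oligodendrocyte genes (3685 CPM, next highest 1933) and WT mouse 2 in CA1 genes (333 CPM, next highest 170.5). The same 3 members as in all mice passed the test without these mice, with log2 fold changes of −1.31 for Npas4, −1.14 for Arc and −0.77 for Nptx2. That fit cannot speak to the meningeal markers. LPAR2-/- mice 2 and 3 had the lowest meningeal sums of their group (84.1 and 59.6 CPM), and WT mouse 2 had 136.7 CPM.

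Transcripts of Npas4, Arc and Nptx2 were less abundant in mice labelled LPAR2-/- than in WT mice, and the other 7 members did not pass the test. These 3 of 10 members compare with 6.77% of all genes that passed in either direction and 3.46% that passed as lower. In 9 of the 10 members the log2 fold change was below 0, against 7284 of 14897 genes tested. That of Rgs2 was −0.0023, and its sign depends on the setting. The genotypes overlapped for each member, so that 0 of 10 were lower without overlap, against 0.906% of all genes. The median log2 fold change was −0.17 over the 10 members and 0.003 over all genes tested. In RNA of whole tissue, fewer cells of a type and less RNA per cell cannot be told apart.

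**Figure D1:**
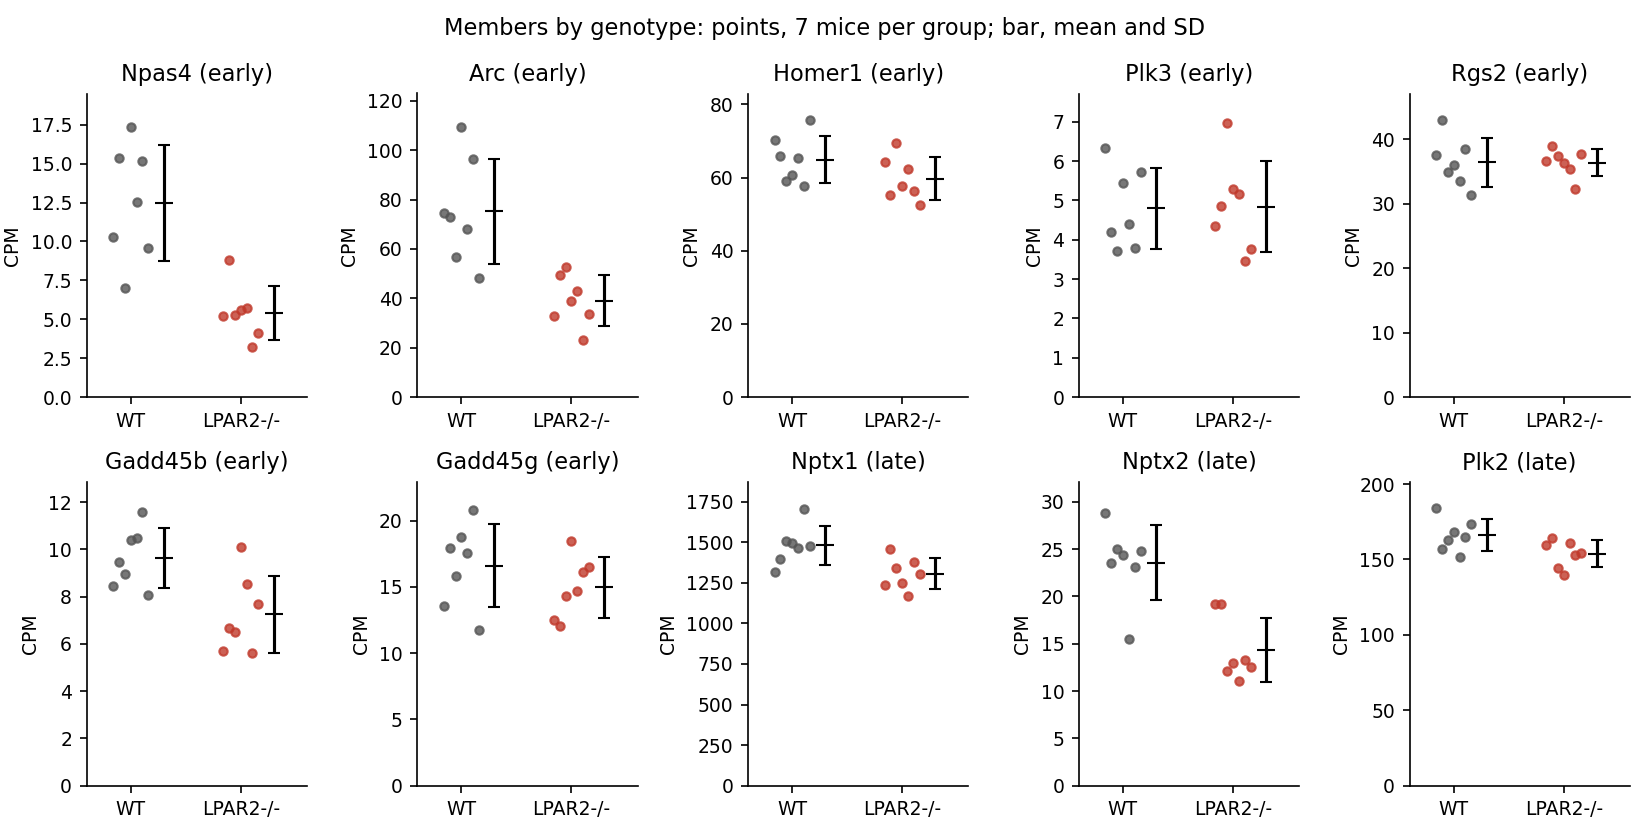
CPM of each member (y axis, from 0) in the 7 WT mice and the 7 mice labelled LPAR2-/- (x axis), 1 point per mouse, with the mean and SD beside the points. Npas4, Arc and Nptx2 stand lower in the mice labelled LPAR2-/-, with some overlap, while the points of Plk3 and Rgs2 cover like ranges.

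Npas4 (chr19:4984355-4989971 on mm10, minus strand) had a CPM of 7.01 in the lowest, 12.6 in the median and 17.4 in the highest WT mouse. In the mice labelled LPAR2-/- it had 3.22, 5.28 and 8.81. Of these mice, 6 of 7 lay below the lowest WT mouse, and the exception was LPAR2-/- mouse 2, the library with the high choroid plexus genes. The means were 12.5 ± 3.71 and 5.43 ± 1.74 CPM (SD, n = 7 each). Npas4 thus stood at 43.8% of its WT level, with a log2 fold change of −1.19 (SE 0.218, 95% interval −1.66 to −0.73, edgeR adjusted p = 0.00537), the greatest among the members. The call rests on modest counts, 138 to 347 reads in the WT mice and 54 to 172 in the others, and it was kept with each of the 14 mice left out in turn (highest adjusted p 0.0145).

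Arc (chr15:74669081-74672570, minus strand) encodes a capsid-like protein whose RNA travels to dendrites and which draws AMPA receptors from the synapse. Its lowest, median and highest values were 48.4, 72.9 and 109.5 CPM in WT mice. In the mice labelled LPAR2-/- they were 23.2, 39.1 and 52.6 CPM. All but 2 of the latter lay below the lowest WT mouse, so that the groups overlapped through LPAR2-/- mice 2 and 3 and WT mouse 7 alone. The means of 75.2 ± 21.4 and 39.1 ± 10.2 CPM (SD, n = 7 each) differed by −0.94 on the log2 scale (SE 0.201, 95% interval −1.37 to −0.51, edgeR adjusted p = 0.0155). When the mouse numbers were entered as a replicate block, the log2 fold change was −0.93 and the adjusted p 0.0670. After removal of the genotype means, 3 of the 7 pairs of equal number correlated above 0.1, and 2 of 7 WT mice correlated best with the mouse of their own number.

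Homer1 (chr13:93304495-93405129, plus strand) gives long scaffold proteins, which tie metabotropic glutamate receptors to the postsynaptic density, and a short form induced by activity, Homer1a, which loosens these ties. The counts join all forms. It had 64.9 ± 6.46 CPM in WT mice and 59.6 ± 5.85 CPM in the others, with ranges of 57.7 to 75.7 and 52.6 to 69.3 CPM that largely overlap. The log2 fold change was −0.12 (95% interval −0.27 to 0.02, edgeR adjusted p = 0.316).

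Plk3 (chr4:117128655-117133952, minus strand) is a Polo-like kinase of the stress response that neuronal activity also induces. It had 4.80 ± 1.03 CPM in WT mice and 4.84 ± 1.16 CPM in the others, the least of all members, and 58 to 161 reads per mouse over both groups. Its log2 fold change of 0.02 had a 95% interval of −0.31 to 0.36 (edgeR adjusted p = 0.960) and turned to −0.15 without the 3 mice whose markers stand apart.

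Rgs2 (chr1:143999338-144004149, minus strand) speeds the shutdown of Gq signalling. Its CPM values were 31.4 to 43.1 in WT mice and 32.3 to 39.0 in the others. The means of 36.5 ± 3.77 and 36.4 ± 2.15 CPM (SD, n = 7 each) gave a log2 fold change of −0.0023, whose sign depends on the setting, with a 95% interval of −0.13 to 0.13 (edgeR adjusted p = 0.990). As a fold, this interval runs from 0.912 to 1.09, and so does not reach the decrease of Npas4 or Arc.

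Gadd45b (chr10:80930091-80932204, plus strand) and Gadd45g (chr13:51846675-51848474, plus strand) are related small proteins of the stress response that take part in the removal of DNA methylation, and Gadd45b has been linked to activity in dentate gyrus neurons. Gadd45b had 8.05 CPM in the lowest, 9.47 in the median and 11.6 in the highest WT mouse. It had 5.61, 6.66 and 10.1 CPM in the mice labelled LPAR2-/-. The log2 fold change of −0.40 (SE 0.127, 95% interval −0.67 to −0.14) did not pass the test (edgeR adjusted p = 0.0672). It passed with DESeq2 (adjusted p = 0.0306) and in edgeR without LPAR2-/- mouse 4, the highest of its group, where the log2 fold change was −0.50 (adjusted p = 0.0199). Gadd45g had 16.6 ± 3.12 CPM in WT mice and 14.96 ± 2.27 CPM in the others (log2 fold change −0.15, 95% interval −0.41 to 0.11, edgeR adjusted p = 0.496).

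Of the late members, Nptx1 (chr11:119538719-119547820, minus strand) and Nptx2 (chr5:144545887-144557478, plus strand) are secreted neuronal pentraxins that gather AMPA receptors at excitatory synapses. Nptx2, also called Narp, is the more strongly induced by activity. It had 15.5 CPM in the lowest, 24.4 in the median and 28.8 in the highest WT mouse. It had 11.1, 12.97 and 19.2 CPM in the mice labelled LPAR2-/-. The groups overlap through WT mouse 5, the lowest WT mouse, and through LPAR2-/- mice 1 and 2, and the other 5 mice labelled LPAR2-/- lie below every WT mouse. The means were 23.6 ± 4.01 and 14.3 ± 3.40 CPM (SD, n = 7 each), a log2 fold change of −0.72 (SE 0.145, 95% interval −1.03 to −0.41, edgeR adjusted p = 0.0101). The call was kept with each mouse left out in turn (highest adjusted p 0.0235).

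Nptx1 was the most abundant member and moved little. It had 1481 ± 120 CPM in WT mice (range 1315 to 1706) and 1306 ± 96.8 CPM in the others (range 1171 to 1460). The log2 fold change of −0.18 (SE 0.0577, 95% interval −0.30 to −0.06) did not pass the test (edgeR adjusted p = 0.0718). It passed with DESeq2 (adjusted p = 0.0300) and in edgeR without LPAR2-/- mouse 2 (adjusted p = 0.0431) or without WT mouse 1 (adjusted p = 0.0299). Plk2 (chr13:110395044-110400843, plus strand), a Polo-like kinase that weakens synapses after long activity by degradation of spine proteins, had 166 ± 10.7 CPM in WT mice and 154 ± 8.99 CPM in the others (log2 fold change −0.11, SE 0.0470, 95% interval −0.21 to −0.01, edgeR adjusted p = 0.168).

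**Figure D2:**
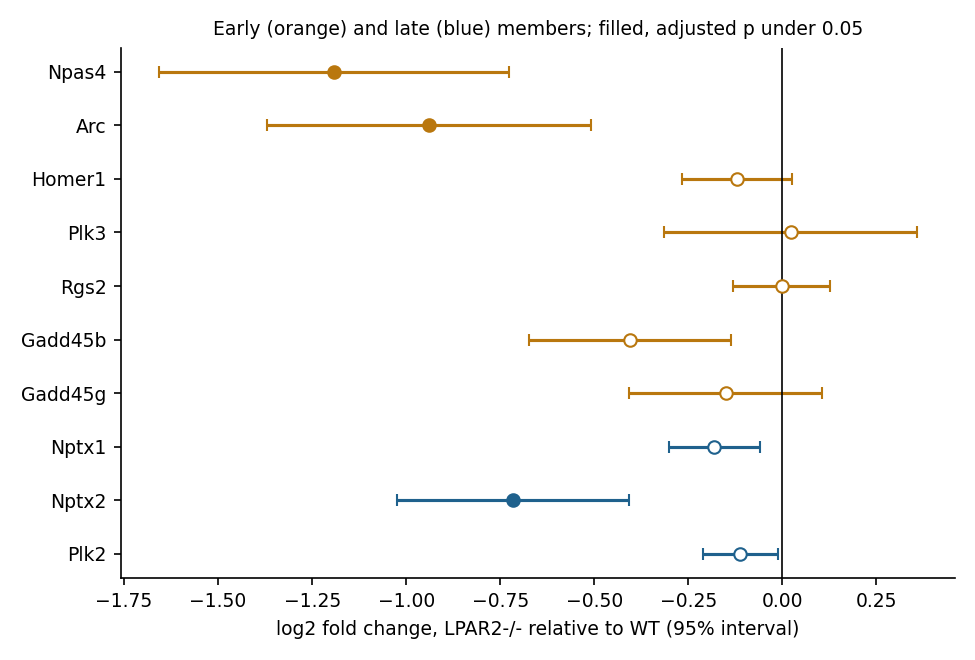
Log2 fold change of each member in mice labelled LPAR2-/- relative to WT (x axis), with the 95% interval, for early members (orange) and late members (blue); filled points passed the test. Npas4 (−1.19), Arc (−0.94) and Nptx2 (−0.72) are the filled points, and the intervals of Homer1, Plk3, Rgs2 and Gadd45g cross 0.

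Early and late members were set side by side. Of the early members 2 of 7 passed the test (Npas4 and Arc), and of the late members 1 of 3 (Nptx2). These counts rest on the placing of each member, and no setting counted Nptx2 or Plk2 as early. The median log2 fold change was −0.15 for the early and −0.18 for the late members, a difference of 0.03. It was not tested, ranged from −0.04 to 0.10 with each mouse left out in turn and changed sign with the summary used: it was −0.10 with Homer1 left out and −0.06 with means in place of medians. Both classes also hold members near 0 that did not pass, Rgs2 and Plk3 among the early ones and Plk2 among the late ones.

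Each mouse was then given an early and a late value, the mean over the 7 or the 3 members of its log2 CPM minus the WT mean. The early value ran from −0.255 to 0.221 in WT mice and from −0.726 to −0.238 in the mice labelled LPAR2-/-. The late value ran from −0.238 to 0.098 in WT mice and from −0.479 to −0.102 in the others. Each value thus overlapped between genotypes at its edge. Early minus late ranged from −0.386 to 0.197 in the mice labelled LPAR2-/-, with a mean of −0.061 ± 0.250 (SD, n = 7), and from −0.293 to 0.241 in WT mice. Mice of both genotypes lay on either side of 0.

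**Figure D3:**
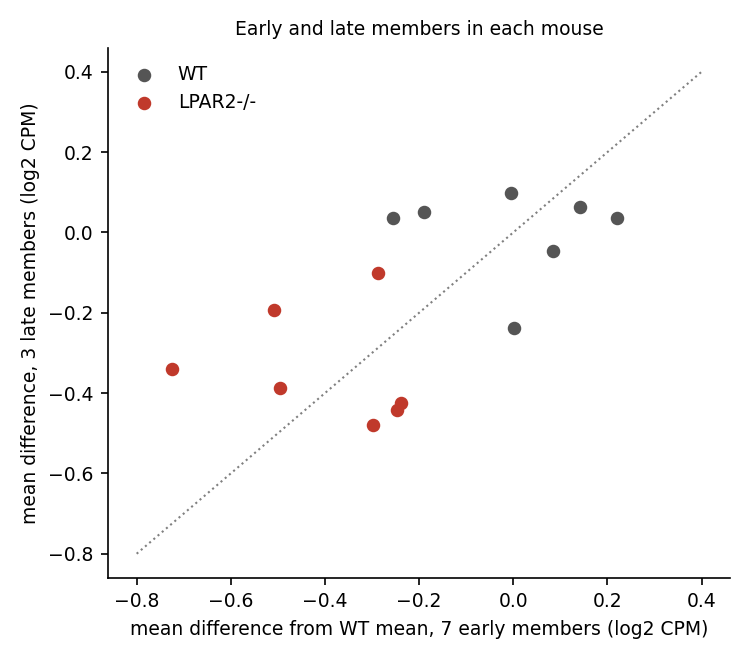
Mean difference from the WT mean (log2 CPM) over the 7 early members (x axis) and over the 3 late members (y axis), 1 point per mouse; the dotted line marks equal values. Mice labelled LPAR2-/- lie lower and further left (early −0.726 to −0.238, late −0.479 to −0.102), on both sides of the line.

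Npas4 and Arc were also the members that varied most among WT mice. The SD of log2 CPM among the 7 WT mice was 0.459 for Npas4 and 0.407 for Arc, above 94.9% and 92.7% of all genes. Nptx2 (0.275), Gadd45g (0.283) and Plk3 (0.300) followed. Plk2 varied least (0.092, above 32.2% of genes), with Nptx1 next (0.115, above 44.9%). The 3 members that passed the test are thus among the 5 most variable, and their calls rest on mice that differ from each other within a genotype.

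Npas4 and Arc were then compared mouse by mouse. WT mouse 4 was the highest in both (17.4 and 109.5 CPM) and LPAR2-/- mouse 6 the lowest in both (3.22 and 23.2 CPM). The other ends of the groups fell to different mice: the lowest WT mouse was mouse 3 for Npas4 (7.01 CPM) and mouse 7 for Arc (48.4 CPM), and the highest of the mice labelled LPAR2-/- was mouse 2 for Npas4 (8.81 CPM) and mouse 3 for Arc (52.6 CPM). Within WT mice the correlation of their log2 CPM was r = 0.80 (exact two-sided permutation p = 0.0323, n = 7) with rho = 0.79 (exact permutation p = 0.0480). Within the mice labelled LPAR2-/- it was r = 0.81 (exact two-sided permutation p = 0.0329, n = 7) with rho = 0.75 (exact permutation p = 0.0663). Over the 18 relations of Npas4 with the other members in the 2 genotypes, none passed after adjustment (for Arc, adjusted p = 0.296 for r and 0.398 for rho in both genotypes, exact permutation). Without the 2 mice farthest from the median of Npas4, r was 0.73 in WT mice and 0.47 in the others, so that in the latter the relation rests largely on 2 mice.

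**Figure D4:**
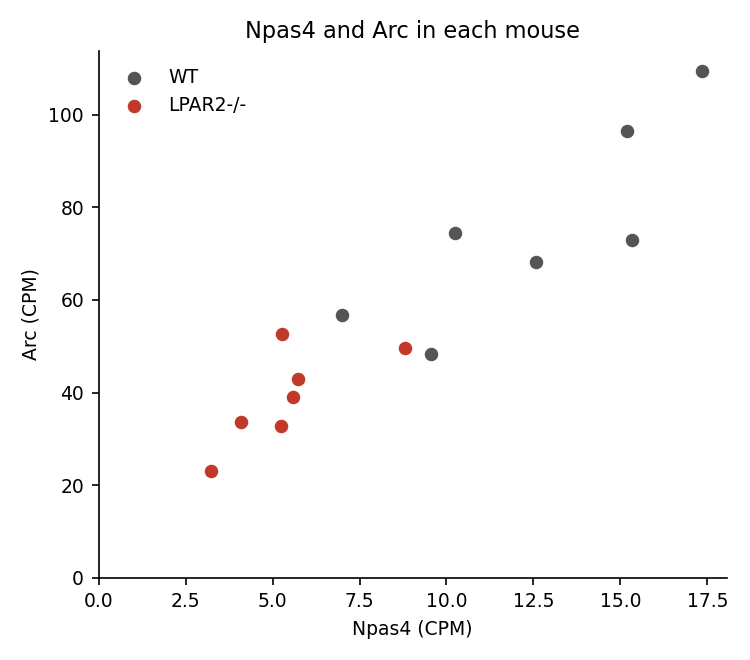
Npas4 (x axis, CPM) against Arc (y axis, CPM), 1 point per mouse, grey for WT and red for mice labelled LPAR2-/-. Points run from LPAR2-/- mouse 6 (3.22 and 23.2 CPM) at the lower left to WT mouse 4 (17.4 and 109.5 CPM) at the upper right.

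Genes with the most similar pattern across mice were sought among 14081 genes with a mean of at least 1 CPM, by the correlation of log2 CPM over the 14 mice after removal of each genotype mean; the genes compared share the same 14 libraries, and the values are a description. For Npas4, Arc came first (r = 0.81), before Acy3 (0.80), Slx4 (0.77), B630005N14Rik (0.75) and Gm10516 (0.75). For Arc, the nearest were Adi1 (0.82), Egr1 (0.82), Npas4 (0.81), Phf5a (0.80) and L3hypdh (0.80). Egr1, a zinc finger factor and itself an early activity gene, had r = 0.85 with Arc in WT mice alone, and its log2 fold change was −0.52 (edgeR adjusted p = 0.0586). Nptx2 had other neighbours: the dopamine receptor gene Drd1 (0.93, and 0.87 in WT mice alone), Mcrs1 (0.86), Anp32e (0.84), Ttll11 (0.83) and 1110038F14Rik (0.82). The log2 fold change of Drd1 was 0.18 (edgeR adjusted p = 0.470), opposite in sign to that of Nptx2. The summed level of 8 striatal markers, of which Drd1 is one, ran from 131 to 156 CPM in WT mice and from 132 to 152 CPM in the others. Nptx2 had r = 0.13 with Npas4 and 0.0031 with Arc in the same measure. Among the other members, Homer1 and Plk3 (0.72), Gadd45b and Gadd45g (0.70) and Nptx2 and Plk2 (0.64) had the highest values. The lowest were those of Gadd45g with Plk2 (−0.65), Homer1 (−0.61) and Nptx2 (−0.53).

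Levels of the members, compared per kilobase of exon, differed widely in WT mice. Nptx1 came first with 280 ± 22.7 CPM per kilobase (SD, n = 7), before Plk2 (59.3 ± 3.80) and Arc (24.6 ± 6.99). Then came Gadd45g (15.4 ± 2.89), Rgs2 (12.1 ± 1.25), Homer1 (10.9 ± 1.09), Nptx2 (9.25 ± 1.57) and Gadd45b (7.60 ± 0.995). Npas4 (3.80 ± 1.13) and Plk3 (2.03 ± 0.435) were the lowest. The ranges of WT mice did not overlap between Nptx1 and Plk2, between Plk2 and Arc, and between Gadd45b and Npas4. The other neighbours in this order overlapped. Of the 3 members that passed the test, Arc, Nptx2 and Npas4 thus stand at high, middle and low levels.

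**Figure D5:**
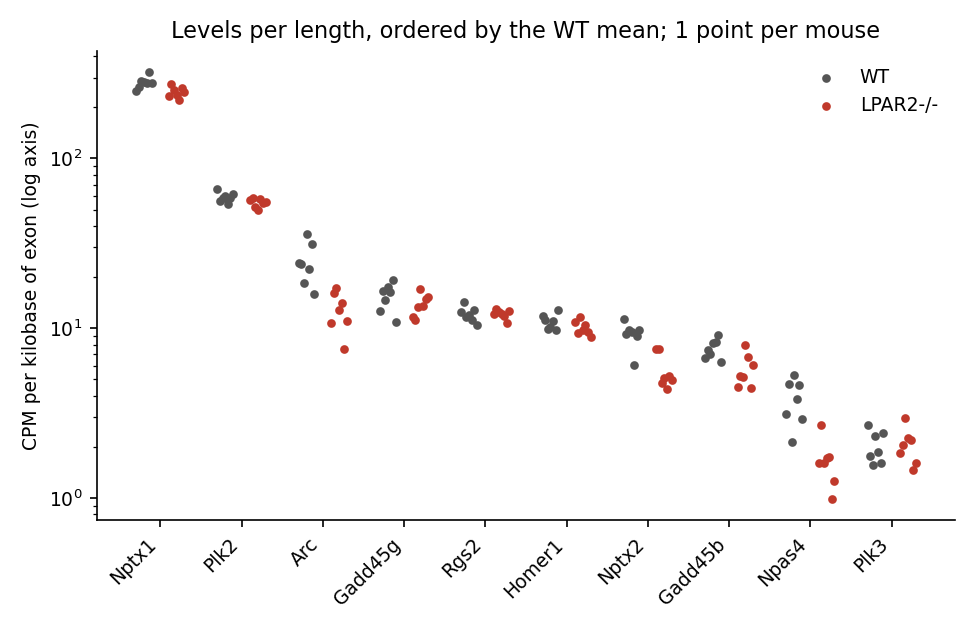
CPM per kilobase of exon (log axis) of each member, ordered by the WT mean, 1 point per mouse. Nptx1 (280 in WT mice) and Plk2 (59.3) stand above the rest, and Npas4 (3.80) and Plk3 (2.03) below.

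Among other genes of the activity response, those that passed the test were all lower. These lists were chosen with earlier results of these data known, in which genes such as Fos, Fosb and Egr2 were already reported as lower. Their counts are therefore no independent result. Of 32 further early activity genes, 11 passed the test as lower and 0 as higher, against 3.46% of all genes that passed as lower. In this list 30 had a log2 fold change below 0, against 7284 of 14897 genes tested, and the median was −0.28. The count that passed fell to 7 without LPAR2-/- mouse 1, 5 or 6 or WT mouse 2 or 5. It fell to 6 without WT mouse 4 or 6. The greatest differences were in Egr2 (log2 fold change −2.50, edgeR adjusted p = 0.00441), Fos (−1.86, adjusted p = 0.00781) and Fosb (−1.46, adjusted p = 0.000700), which encode transcription factors. Fos had 13.5 ± 6.86 CPM in WT mice and 3.71 ± 1.27 CPM in the others. Of 21 further late activity genes, 2 passed as lower and 0 as higher (all genes, 3.46% as lower), 18 lay below 0, and the median was −0.19. They were Cdkn1a, an inhibitor of the cell cycle (log2 fold change −1.02, edgeR adjusted p = 0.000505), and Stk40, a kinase-like gene (−0.21, adjusted p = 0.0142). This late count fell to 1 without the 3 mice whose markers stand apart.

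Of 46 tested genes in 7 lists of partners and relatives of the members, 3 passed as lower and 0 as higher, where 3.46% of all genes passed as lower, and the median log2 fold change was −0.01. The count was 1 without LPAR2-/- mouse 1 or with the replicate block, and 5 without WT mouse 1 or with DESeq2. Of the 8 Homer relatives and binding partners, 7 had a log2 fold change below 0, against 7284 of 14897 genes tested. Of these 8 genes 1 passed, and their median was −0.16. The medians were −0.02 for Polo-like kinases and substrates (7 tested, 1 passed) and 0.01 for the other R4 RGS genes (6 tested, 1 passed). The genes that passed were Shank1, a scaffold that binds Homer (−0.13, edgeR adjusted p = 0.0495), Rap1gap, a regulator of the Rap GTPase (−0.14, adjusted p = 0.0226), and Rgs4, a relative of Rgs2 (−0.26, adjusted p = 0.0170). In the lists of Npas4 relatives and Arnt partners (6 tested), Arc partners (8), pentraxin receptor and AMPA receptor subunits (5) and Gadd45a with Gadd45 partners (6), 0 genes passed.

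Some clock genes, whose transcripts follow the hour of the day, also differed between the genotypes. Of 12 clock genes, 6 passed the test, against 6.77% of all genes in either direction: Arntl (log2 fold change −0.40, edgeR adjusted p = 0.00281) and Clock (−0.18, adjusted p = 0.0238) as lower, and Dbp (0.90, adjusted p = 0.000133), Ciart (0.87, adjusted p = 0.000132), Nr1d2 (0.21) and Cry2 (0.18) as higher. The summed level of all 12 clock genes, whether or not they passed, was 1412 to 1623 CPM in WT mice and 1561 to 1715 CPM in the others. The sources used here give no hour of dissection, and the part of these differences in those of Npas4, Arc and Nptx2 was not tested.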

How the data were processed

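RNA of the hippocampus was extracted with Trizol, depleted of ribosomal RNA and sequenced from 7 mice labelled LPAR2-/- and 7 WT mice. The authors made the deposited counts with featureCounts 1.6.3 from reads that had been trimmed (cutadapt 1.18) and aligned by STAR (mm10). Exons were counted on the reverse strand, and ambiguous reads were left out. A further table of normalised values (28 columns, DESeq2 1.22.2) was not used here, since decimal points in it were damaged.

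Counts of 15434620 to 23258949 reads per mouse were tested in R 4.3.3 with edgeR 4.0.16 (TMM, filterByExpr, robust quasi-likelihood F test, no covariates, adjusted p under 0.05). Log2 CPM used a prior count of 2, and lengths came from the deposited table. Alternatives were DESeq2 1.42.0, limma 3.58.1 (voom), other scalings and filters, a prior count of 0.5, the mouse number as a block, each mouse left out, and, chosen after seeing the data, the 3 mice with unusual marker sums left out. The tests were checked on simulated counts. The members and gene lists were chosen with earlier results of these data known. The text names all 10 members and Lpar2, from each list at most the 3 called genes with the largest change in each direction, and the 5 genes nearest in pattern to Npas4, Arc and Nptx2. Cry2 was named after its values were seen. Depth of each library limits low genes by counting error only. Library pairs within a genotype (42) all differed beyond counting noise, with a chi-square of at least 3.41 times its degrees of freedom.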

Additional observations from a re-analysis of the deposited data

How the results depend on the processing

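Npas4 and Nptx2 kept their call and direction under every alternative run, and Arc under all but the replicate block (adjusted p = 0.0670). Of the members, 3 passed the test, against 5 with DESeq2 (with Gadd45b and Nptx1), 2 with the replicate block and 3 to 4 with each mouse left out. Over all genes, 1009 passed, against 586 with the replicate block, 558 without the 3 mice whose markers stand apart and 567 to 1385 with each mouse left out (611 without LPAR2-/- mouse 1, and 567, 669, 596 and 654 without WT mice 2, 4, 5 and 6). Upper quartile scaling gave 62.0% of calls as higher, against 49.0%. Other early genes passing numbered 11, against 7 with no filter and 6 to 12 with each mouse left out (7 without LPAR2-/- mouse 1, 5 or 6 or WT mouse 2 or 5, 6 without WT mouse 4 or 6). Other late genes numbered 2, against 1 without the 3 mice and 2 to 3 with each mouse left out. Partners numbered 3, against 5 with DESeq2, 1 with the replicate block and 1 to 5 with each mouse left out (1 without LPAR2-/- mouse 1, 5 without WT mouse 1). Signs turned for genes near 0: Plk3 to −0.15 without the 3 mice (−0.091 to 0.10 with each mouse left out), and Rgs2 to 0.018 with the upper quartile, 0.0012 with limma-voom, 0.0017 with the replicate block and 0.013 without the 3 mice (−0.035 to 0.042 with each mouse left out). The cause was not tested. Same-numbered mice correlated from −0.33 to 0.31 after removal of the genotype means, 3 of 7 above 0.1, and 2 of 7 WT mice best with their own number, and the numbers were not taken as pairs. Depth limits Plk3, Npas4 and Gadd45b most.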
